A study of Mus musculus with 6 samples.

Results

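The genes described here are 42 non-collagen components of the extracellular matrix and their crosslinking enzymes: proteoglycans, glycoproteins, elastic fibre proteins, lysyl oxidases and matrix-directed serine proteases. They were taken by gene symbol, with no measured value in the rule, but the list was chosen with earlier results of these data known. All 42 were found among the 18260 genes of the deposited count table. Expression was measured by RNA sequencing of 6 libraries of primary hepatocytes from liver tumours of male mice, 3 libraries per genotype. Mice of both genotypes had been given 90 μg per g of the carcinogen diethylnitrosamine (DEN) once, by intraperitoneal injection, when 6 weeks old. From 3 weeks later they ate a diet with 0.05% phenobarbital (PB), a tumour promoter, for 27 weeks, and cells were collected 30 weeks after DEN. The Ripply1 F/F group had exons 1 to 3 of Ripply1 flanked by loxP; this gene encodes a co-repressor of T-box transcription factors. The Ripply1 ΔHep group carried the same floxed alleles and Alb-Cre, a transgene in which the albumin promoter drives the recombinase in hepatocytes. Stellate cells, endothelial cells and macrophages do not normally use this promoter. The labels do not say whether the replicates of a group were separate animals or how many tumours each came from, and the p-values reflect only how these libraries spread, which may be technical.

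The extracellular matrix of the liver is a sparse network in the space between hepatocytes and sinusoids and a denser one around portal tracts. Small leucine-rich proteoglycans coat collagen fibrils and bind growth factors, microfibrils of fibrillin carry elastin and hold latent TGF-β, and lysyl oxidases join collagen and elastin chains by covalent crosslinks. In liver most of these proteins are made by stellate cells and portal fibroblasts, whereas fibronectin and vitronectin are also secreted into plasma by hepatocytes. Matrix accumulates when stellate cells become myofibroblasts in chronic injury.

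Total counts per library lay between 27772849 and 35894395, and expression is given as CPM, counts scaled to library size, on library sizes scaled by edgeR's TMM method, so that 1 CPM stood for 26.67 to 37.87 counts. Where 3 values are listed for a group, they follow the order of its replicates. Ripply1, the targeted gene, had 13, 8 and 12 counts in the F/F libraries and 1, 1 and 2 counts in the ΔHep libraries, and an exact two-sided permutation test gave p = 0.1, the smallest that 3 against 3 allows. Transcripts of hepatocytes were abundant in each library: 11 hepatocyte markers summed to between 120040 and 127300 CPM in F/F and between 108000 and 134770 CPM in ΔHep. Markers of other liver cells were present too. The 15 markers of stellate cells and fibroblasts, none of them among the 42 genes, summed to 243.6 to 402.6 CPM in F/F and 493.9 to 766.6 CPM in ΔHep, and none of the 15 was at 0 in any library. In such libraries fewer cells of a type and less RNA per cell cannot be told apart, and the part of these cells in the matrix gene results was not tested.

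Matrix gene expression was higher in ΔHep for most of the 42 genes. Of 40 that passed the filter on low counts, 12 rose and 0 fell at an adjusted p below 0.05 in edgeR's quasi-likelihood test: Lum, Dcn, Bgn, Emilin1, Ltbp1, Ltbp2, Mfap2, Mfap4, Sparcl1, Tgfbi, Nid1 and Htra3. Over all 14552 tested genes, 1.51% rose and 0.165% fell. Before adjustment, at p under 0.05, 34 of the 40 were higher and 0 lower, beside 14.1% higher and 6.97% lower over all tested genes. DESeq2 and limma-voom also called 0 of them lower. In 33 of the 40, every ΔHep library lay above every F/F library, as in 15.3% of tested genes, and in 0 of the 40 every ΔHep library lay below, as in 11.8% of tested genes. The log2 fold change (log2FC), ΔHep over F/F, was above 0 in 38 of the 40 and in 48.8% of tested genes. The median log2FC was 1.06, against -0.01 for all tested genes, and 22 of the 40 exceeded 1, as did 9.12% of tested genes. These are counts over a list that was not drawn at random but chosen with earlier results of these data known. Their distance from the shares of all tested genes is therefore a description and was not tested. The 2 genes below the filter, Aspn and Mfap5, are described by their counts. Mfap2 and Vcan passed the filter through their ΔHep counts alone and had to be higher there, so both are in these counts by the filter. A fit without the filter covered all 42 genes, and 14 rose there.

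**Figure D1:**
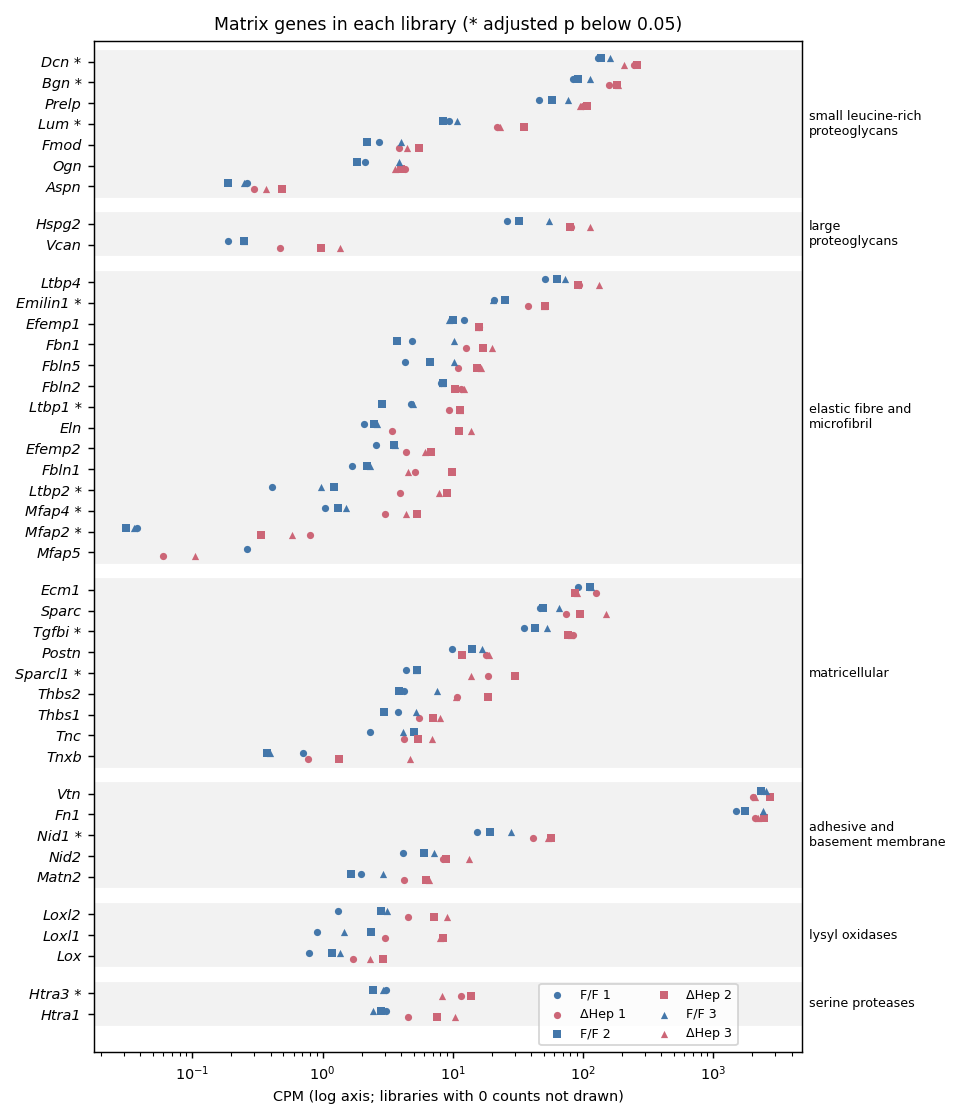
Expression of the 42 matrix genes in each of the 6 libraries, in CPM on a log axis, grouped by role; blue symbols are F/F, red symbols ΔHep, symbol shapes are replicates, and a library with 0 counts has no symbol. For 33 of the 40 tested genes the red symbols all lie to the right of the blue ones; Vtn, Fn1, Ecm1 and Postn are among those that overlap.

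The small leucine-rich proteoglycans are short core proteins with leucine-rich repeats that bind fibrillar collagen. Of 7, 3 rose (Lum, Dcn and Bgn), 3 did not pass (Prelp, Fmod and Ogn) and 1 was not tested (Aspn). Of all tested genes 1.51% rose. The median log2FC of the 6 tested was 0.74, against -0.01 for all tested genes. Lum encodes lumican, which regulates the diameter of collagen fibrils, and lies at chr10:97565128-97572703 on the plus strand of GRCm38, the build of all gene positions given here. It stood at 9.34, 8.45 and 10.8 CPM in the F/F libraries and at 22.1, 35.0 and 23.2 CPM in the ΔHep libraries. The groups were well apart, with the highest value in ΔHep replicate 2. The means were 9.51 ± 1.16 and 26.8 ± 7.15 CPM (SD, n = 3 each), and the log2FC was 1.49 (SE 0.20, adjusted p = 0.0329).

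Dcn encodes decorin, which binds collagen and TGF-β, and is the next gene to Lum on chromosome 10 (chr10:97479609-97518143, plus strand). F/F libraries held 131, 138 and 160 CPM and ΔHep libraries 246, 260 and 206 CPM. No ΔHep value was as low as the F/F values, with a log2FC of 0.73 (SE 0.13, adjusted p = 0.0431). Bgn, on chromosome X (chrX:73483602-73495933, plus strand), encodes biglycan, the closest relative of decorin. Its values were 83.5, 91.7 and 112 CPM in F/F and 159, 182 and 187 CPM in ΔHep, a log2FC of 0.88 (SE 0.14, adjusted p = 0.0329). All 3 ΔHep libraries stood above the highest F/F library.

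Prelp encodes a proteoglycan that anchors basement membranes to the connective tissue beneath. Levels were 46.1, 57.9 and 77.5 CPM in F/F and 99.4, 108 and 95.6 CPM in ΔHep. The groups did not overlap, but the F/F libraries spread widely, and the log2FC of 0.74 (SE 0.18) did not pass (adjusted p = 0.0687). The antisense gene Gm15851 covers 9.68% of its exon bases. Fmod, encoding fibromodulin, is the gene next to Prelp on chromosome 1. It was at 2.70, 2.21 and 4.02 CPM in F/F and 3.88, 5.54 and 4.44 CPM in ΔHep, where the ranges overlapped (log2FC 0.64, SE 0.28, adjusted p = 0.233). Ogn, encoding osteoglycin, also overlapped, with F/F replicate 3 at 3.84 CPM above ΔHep replicate 3 at 3.59 CPM (log2FC 0.60, adjusted p = 0.294). Aspn, encoding asporin, had 7, 6 and 7 counts in F/F and 10, 16 and 14 counts in ΔHep. The ratio of its pooled counts per scaled library size was 1.66, with an exact 95% interval from 0.949 to 3.00 that covers counting error only.

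Both large proteoglycans were higher in every ΔHep library than in any F/F library, as were 15.3% of all tested genes, and neither passed the threshold. Vcan passed the filter on low counts through its ΔHep counts alone, so for it this order was fixed by the filter. Hspg2 encodes perlecan, a heparan sulfate proteoglycan of basement membranes. It stood at 26.02, 32.5 and 54.5 CPM in F/F and at 81.5, 80.0 and 114 CPM in ΔHep. The means were 37.7 ± 14.9 and 91.7 ± 19.0 CPM (SD, n = 3 each), a log2FC of 1.28 (SE 0.27, adjusted p = 0.0566). Vcan encodes versican, a chondroitin sulfate proteoglycan of provisional matrix that binds hyaluronan. It was scarce, at 0.187, 0.249 and 0.251 CPM in F/F and 0.474, 0.980 and 1.37 CPM in ΔHep. Its log2FC was 2.02 (SE 0.53, adjusted p = 0.0838), resting on 20 pooled counts in F/F and 100 in ΔHep. Before adjustment, at p under 0.05 both were higher, beside 14.1% of all tested genes. DESeq2 called both and limma-voom 0, beside 7.35% and 0.522% of all tested genes.

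Among the 14 elastic fibre and microfibril proteins 5 rose, 8 did not pass and 1, Mfap5, was not tested. Of all tested genes 1.51% rose. All 13 tested were higher at an unadjusted p under 0.05, as were 14.1% of all tested genes. In all 13 the ΔHep libraries stood above the F/F libraries, as in 15.3% of all tested genes. For Mfap2 this order was fixed by the filter on low counts. The log2FCs of the 13 ran from 0.47 to 3.90, with a median of 1.35 against -0.01 for all tested genes. Emilin1, on chromosome 5 (chr5:30913402-30921277, plus strand), encodes an elastin-binding glycoprotein at the interface of elastin and microfibrils. It was at 20.9, 25.2 and 20.2 CPM in F/F and at 38.2, 51.2 and 49.9 CPM in ΔHep. The groups were apart, with replicate 1 the lowest of ΔHep, and the log2FC was 1.07 (SE 0.15, adjusted p = 0.0329).

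Latent TGF-β binding proteins tether the inactive growth factor to microfibrils, with the exception of the protein of Ltbp2, which binds fibrillin but not latent TGF-β. Ltbp2 (chr12:84783212-84876532, minus strand) had the second highest fold change of the 40 genes. It stood at 0.412, 1.22 and 0.968 CPM in F/F and at 3.97, 9.03 and 7.79 CPM in ΔHep. Means of 0.865 ± 0.411 and 6.93 ± 2.64 CPM (SD, n = 3 each) gave a log2FC of 2.98 (SE 0.44, adjusted p = 0.0329), and ΔHep replicate 1 was the lowest of its group. An antisense gene, D030025P21Rik, covers 9.34% of its exon bases, and reads of the 2 cannot be told apart without the strand setting of the counting. Ltbp1 (chr17:75005568-75392512, plus strand) stood at 4.80, 2.87 and 4.98 CPM in F/F and at 9.33, 11.3 and 11.5 CPM in ΔHep, with little spread among the ΔHep libraries (log2FC 1.35, SE 0.23, adjusted p = 0.0383). Ltbp4, the most abundant of the 3, was at 51.0, 63.2 and 72.6 CPM in F/F and at 92.6, 91.4 and 133 CPM in ΔHep. Its groups were apart as well, but it did not pass (log2FC 0.76, SE 0.18, adjusted p = 0.0700).

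Mfap2 and Mfap4 encode microfibril-associated proteins. Mfap2 (chr4:141010418-141015984, plus strand) had 1 count in each F/F library and 27, 11 and 22 counts in the ΔHep libraries. F/F was at the limit of detection at this depth, so the size of the change is known only roughly: the ratio of pooled counts was 16.6, with an exact 95% interval from 5.42 to 82.8. The fitted log2FC was 3.90 (SE 0.68, adjusted p = 0.0390). Mfap4 (chr11:61485431-61488900, plus strand) stood at 1.05, 1.31 and 1.51 CPM in F/F and at 3.02, 5.33 and 4.38 CPM in ΔHep. The lowest ΔHep value was well above the highest F/F value, with a log2FC of 1.72 (SE 0.30, adjusted p = 0.0390). Exons of Mapk7, on the opposite strand, cover 4.63% of the exon bases of Mfap4. Mfap5 was barely detected in either group, with 7, 0 and 0 counts in F/F and 2, 0 and 4 counts in ΔHep. Its pooled ratio of 0.712 had an exact 95% interval from 0.198 to 2.47, so no difference was detectable at this depth.

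Eln encodes tropoelastin, the soluble precursor of elastin, and Fbn1 encodes fibrillin-1, the backbone of microfibrils. Eln was tightly grouped in F/F at 2.10, 2.49 and 2.62 CPM and spread from 3.44 through 11.1 to 13.7 CPM in ΔHep. The spread among the ΔHep libraries was the second largest of the 40 tested genes, 4.00-fold between lowest and highest, and the log2FC of 1.97 (SE 0.45) did not pass (adjusted p = 0.0649). Fbn1 was at 4.84, 3.71 and 10.3 CPM in F/F and at 12.6, 17.2 and 20.2 CPM in ΔHep, with F/F replicate 3 close to ΔHep replicate 1 (log2FC 1.41, SE 0.36, adjusted p = 0.0797). Exons of Gm9913, on the opposite strand, overlap 20.1% of its exon bases.

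Fibulins are glycoproteins that link elastin to microfibrils and to the cell surface. Fbln1 had a log2FC of 1.64 (adjusted p = 0.0528), the lowest adjusted p of the 28 tested genes that did not pass, with ΔHep libraries at 5.12, 9.86 and 4.52 CPM and F/F libraries at 1.69, 2.21 and 2.33 CPM. Fbln5, needed for elastic fibre assembly in mice, had means of 7.04 ± 2.94 (F/F) and 14.3 ± 2.91 CPM (ΔHep) (SD, n = 3 each; log2FC 1.02, adjusted p = 0.109). Fbln2 stood at 8.29 ± 0.190 and 11.4 ± 0.904 CPM, the smallest fold change of the 13 tested elastic fibre genes (0.47, adjusted p = 0.110). Efemp2, whose protein fibulin-4 brings lysyl oxidase to tropoelastin, had a log2FC of 0.83 (adjusted p = 0.106). Efemp1, which encodes fibulin-3, was at 12.2, 10.0 and 9.32 CPM in F/F and at 15.9, 15.98 and 15.5 CPM in ΔHep. The ΔHep libraries lay close to each other, yet the log2FC of 0.59 (SE 0.14) did not pass (adjusted p = 0.0708).

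**Figure D2:**
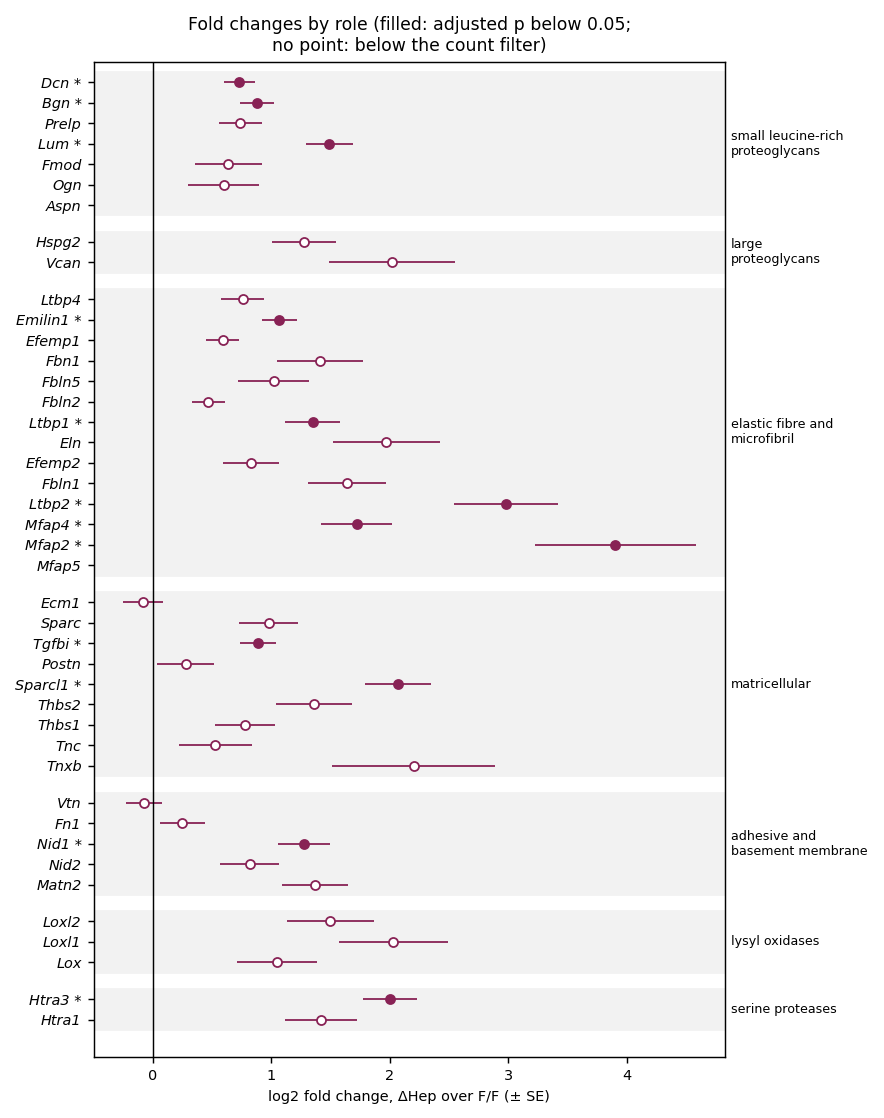
Log2 fold change (ΔHep over F/F) of the 40 tested matrix genes with its SE, grouped by role; filled points have an adjusted p below 0.05, and Aspn and Mfap5, below the filter, have no point. The points lie to the right of 0 except for Vtn at -0.07 and Ecm1 at -0.08, and Mfap2 (3.90) and Ltbp2 (2.98) lie farthest out.

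Promoter sequences were compared because RIPPLY proteins act on T-box factors. Of the 42 genes, 29 had an entry in the RefSeq promoter table (GRCm38.p6), with 39 windows of the 250 bases before a transcription start, and both strands were searched. The T-box motif GGTGTGA was found in 1 window, that of Fbln5, or 2.56% of the 39 beside 3.33% of 32851 windows of all genes. The AP-1 motif TGANTCA was found in 3 windows (Tnxb, Efemp1 and Ecm1), or 7.69% beside 6.75%. The TEAD motif GGAATG, used for the factors through which Hippo signalling acts, was found in 4 windows (Ogn, Mfap2, Vtn and Nid1), or 10.3% beside 12.6%. The shares of the matrix genes were thus close to those of all promoters, and a match of letters shows no binding. No window held more than 1 match, so none overlapped. The windows shown are those of the 2 genes with the highest fold changes, Mfap2 and Ltbp2, of Fbln5 as the 1 with a T-box match, and of Nid1, a gene that rose and holds a TEAD match; capitals mark the motif. Mfap2 and Fbln5 have a further window each, not shown, with no match to the 3 motifs.
Mfap2, chr4:141010174-141010423, plus strand, TEAD match 176 bases before the start: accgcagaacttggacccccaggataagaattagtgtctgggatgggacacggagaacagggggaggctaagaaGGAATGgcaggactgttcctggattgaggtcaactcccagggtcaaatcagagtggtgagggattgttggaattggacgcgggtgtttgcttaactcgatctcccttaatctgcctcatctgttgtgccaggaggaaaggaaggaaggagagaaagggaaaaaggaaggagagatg
Ltbp2, chr12:84876492-84876741, minus strand, no match to the 3 motifs: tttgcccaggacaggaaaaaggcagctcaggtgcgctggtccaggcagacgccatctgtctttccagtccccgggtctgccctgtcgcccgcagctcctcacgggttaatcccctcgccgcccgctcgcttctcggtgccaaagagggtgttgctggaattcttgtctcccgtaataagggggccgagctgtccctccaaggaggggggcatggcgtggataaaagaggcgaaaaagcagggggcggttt
Fbln5, chr12:101819120-101819369, minus strand, T-box match 112 bases before the start: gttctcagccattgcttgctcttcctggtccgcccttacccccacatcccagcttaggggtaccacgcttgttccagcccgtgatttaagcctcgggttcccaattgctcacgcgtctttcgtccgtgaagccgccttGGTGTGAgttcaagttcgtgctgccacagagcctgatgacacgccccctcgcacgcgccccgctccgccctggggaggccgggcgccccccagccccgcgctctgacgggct
Nid1, chr13:13437352-13437601, plus strand, TEAD match 165 bases before the start: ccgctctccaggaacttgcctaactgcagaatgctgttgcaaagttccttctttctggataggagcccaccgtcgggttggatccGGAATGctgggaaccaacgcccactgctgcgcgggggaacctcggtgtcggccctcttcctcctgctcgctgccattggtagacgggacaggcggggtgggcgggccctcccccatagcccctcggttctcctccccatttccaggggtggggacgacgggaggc

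Matricellular proteins modulate how cells meet the matrix rather than building it. Of 9, 2 rose (Sparcl1 and Tgfbi) and 7 did not pass, beside 1.51% of all tested genes that rose. The median log2FC of the 9 was 0.89, against -0.01 for all tested genes. Sparcl1 (chr5:104079111-104113733, minus strand) encodes hevin, a relative of SPARC that takes part in decorin-dependent collagen assembly. It stood at 4.35, 5.33 and 5.27 CPM in F/F and at 18.8, 30.2 and 13.8 CPM in ΔHep. Even the lowest ΔHep library was well above F/F. The means were 4.98 ± 0.550 and 20.9 ± 8.37 CPM (SD, n = 3 each), a log2FC of 2.07 (SE 0.28, adjusted p = 0.0329). Tgfbi (chr13:56609523-56639562, plus strand) encodes a TGF-β-induced protein that binds collagens and integrins. Its values were 35.2, 42.6 and 53.0 CPM in F/F and 84.4, 76.7 and 80.9 CPM in ΔHep, with the ΔHep libraries close together (log2FC 0.89, SE 0.15, adjusted p = 0.0366).

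Sparc encodes osteonectin, a collagen-binding glycoprotein. It stood at 46.4, 49.8 and 65.5 CPM in F/F and at 74.5, 95.1 and 150 CPM in ΔHep. The groups were apart, but ΔHep replicate 3 was far above the other two, and the log2FC of 0.98 (SE 0.25) did not pass (adjusted p = 0.0789). Ecm1 encodes extracellular matrix protein 1, which in mouse liver is made by hepatocytes and keeps latent TGF-β inactive. It was at 91.0, 113 and 116 CPM in F/F and at 126, 87.5 and 89.4 CPM in ΔHep. The highest and the 2 lowest values were all in ΔHep, and the log2FC was -0.08 (SE 0.17, adjusted p = 0.818).

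Thrombospondins bind and activate latent TGF-β or clear proteases from the matrix. Thbs2 had means of 5.22 ± 2.04 (F/F) and 13.4 ± 4.66 CPM (ΔHep) (SD, n = 3 each), with groups apart and a log2FC of 1.36 (SE 0.32, adjusted p = 0.0673). Thbs1 was at 3.99 ± 1.15 and 6.83 ± 1.24 CPM (log2FC 0.78, adjusted p = 0.139). Tnxb, encoding tenascin-X, was at 0.712, 0.374 and 0.394 CPM in F/F and at 0.770, 1.35 and 4.67 CPM in ΔHep. ΔHep replicate 3 carried most of that difference: the log2FC was 2.20 (SE 0.69, adjusted p = 0.129) with it and 1.10 without it. Tnc, encoding tenascin-C of wounds and tumour stroma, had a log2FC of 0.53 (adjusted p = 0.368). Postn, encoding periostin, a protein of activated fibroblasts, stood at 9.82, 14.0 and 16.7 CPM in F/F and at 18.1, 11.8 and 19.1 CPM in ΔHep. The ranges overlapped (log2FC 0.28, SE 0.24, adjusted p = 0.551).

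Of the 5 adhesive and basement membrane glycoproteins, Nid1 rose and 4 did not pass, beside 1.51% of all tested genes that rose. Nid1 (chr13:13437551-13512269, plus strand) encodes nidogen-1, which joins laminin to collagen IV. It stood at 15.3, 19.5 and 27.8 CPM in F/F and at 41.6, 56.6 and 54.0 CPM in ΔHep, a log2FC of 1.28 (SE 0.22, adjusted p = 0.0383). The ΔHep libraries were all well above F/F replicate 3, the highest of F/F. Its paralogue Nid2 was at 5.76 ± 1.499 and 10.2 ± 2.68 CPM (SD, n = 3 each; log2FC 0.82, adjusted p = 0.124). Matn2, encoding the adaptor protein matrilin-2, was at 2.18 ± 0.648 and 5.65 ± 1.23 CPM, with groups apart (log2FC 1.37, SE 0.28, adjusted p = 0.0563).

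Fn1 and Vtn encode fibronectin and vitronectin, plasma adhesion proteins that hepatocytes secrete. Fn1 stood at 1500.4, 1751 and 2422 CPM in F/F and at 2081, 2459 and 2212 CPM in ΔHep. The groups overlapped, F/F replicate 3 being the second highest of the 6, and the log2FC was 0.25 (SE 0.19, adjusted p = 0.487). Vtn stood at 2318, 2342 and 2538 CPM in F/F and at 2034, 2724 and 2097 CPM in ΔHep. ΔHep held both the highest and the lowest values (log2FC -0.07, SE 0.15, adjusted p = 0.833). Per kilobase of exon, Vtn and Fn1 held the first and second rank of the 42 genes in both genotypes, with mean levels of 1182 and 162 CPM per kb in F/F. The rest of the order shifted: Ecm1 was the third in F/F at 42.4 CPM per kb, before Dcn at 24.5, whereas in ΔHep Dcn, at 40.7 CPM per kb, stood just before Ecm1, at a level close to it.

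All 3 lysyl oxidases were higher in each ΔHep library than in any F/F library, were higher at an unadjusted p under 0.05, and did not pass the adjusted threshold. Over all tested genes, 15.3% were higher in each ΔHep library than in any F/F library and 14.1% were higher before adjustment. DESeq2 called 2 of the 3 and limma-voom 0, beside 7.35% and 0.522% of all tested genes. Loxl1, whose product is tied to elastin crosslinking, stood at 0.900, 2.37 and 1.47 CPM in F/F and at 3.02, 8.48 and 8.03 CPM in ΔHep, and ΔHep replicate 1 was again the lowest of its group. Its log2FC was 2.03 (SE 0.46, adjusted p = 0.0649). Loxl2, which crosslinks collagen IV, was at 1.31, 2.81 and 3.16 CPM in F/F and at 4.50, 7.19 and 9.01 CPM in ΔHep, a log2FC of 1.5 (SE 0.37, adjusted p = 0.0724). Lox, the founding member of the family, had means of 1.11 ± 0.294 and 2.32 ± 0.595 CPM (SD, n = 3 each; log2FC 1.05, SE 0.34, adjusted p = 0.137).

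HTRA proteases are secreted serine proteases that cut matrix proteins, decorin and biglycan among their substrates in vitro. Htra3 (chr5:35652023-35679782, minus strand) stood at 3.07, 2.46 and 2.94 CPM in F/F and at 11.6, 13.9 and 8.27 CPM in ΔHep. The F/F values were tightly grouped and far below, with means of 2.83 ± 0.322 and 11.3 ± 2.85 CPM (SD, n = 3 each) and a log2FC of 2.00 (SE 0.23, adjusted p = 0.0329). Htra1 was at 3.07, 2.84 and 2.44 CPM in F/F and at 4.50, 7.53 and 10.4 CPM in ΔHep. Its groups were apart too, with more spread in ΔHep (log2FC 1.42, SE 0.30, adjusted p = 0.0590).

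**Figure D3:**
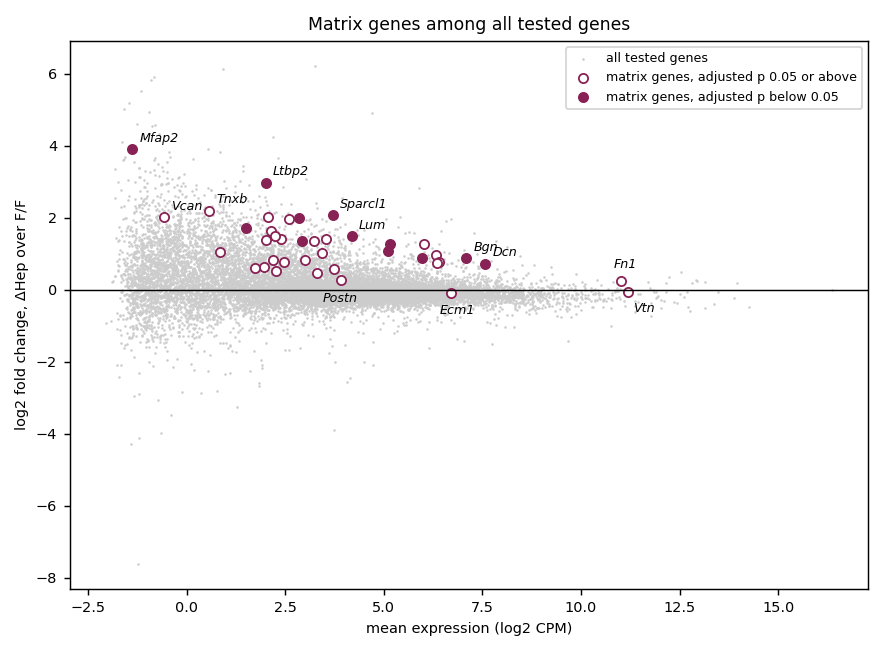
Log2 fold change (ΔHep over F/F) against mean expression (log2 CPM) for all 14552 tested genes in grey and the 40 tested matrix genes in purple, filled where the adjusted p was below 0.05. The matrix genes lie mostly above 0, with a median of 1.06 against -0.01 for all genes, while Fn1 and Vtn, the 2 most abundant, lie near 0.

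The libraries of a group differed in a shared way over the matrix genes. Relative to the F/F mean, the median log2 level of the matrix genes was -0.20, -0.01 and 0.20 in the F/F libraries and 0.71, 1.00 and 1.14 in the ΔHep libraries. ΔHep replicate 1 was the lowest of its group for 26 of the 42 genes and the highest for 4. In F/F, replicate 3 was the highest for 29 and replicate 1 the lowest for 26. Stellate cell and fibroblast markers had the same order of libraries, with summed levels of 244, 280 and 403 CPM in F/F and 494, 738 and 767 CPM in ΔHep. Over all tested genes, 1.51% rose in edgeR, 7.35% in DESeq2 and 0.522% in limma-voom. The median log2FC of the stellate cell and fibroblast markers was 1.13. Of these markers 5 of 15 rose (Col1a1, Col1a2, Pdgfra, Pdgfrb and Cygb), where DESeq2 called 11 and limma-voom 1. The log2FC was above 0 in 14 of the 15, beside 48.8% of tested genes. Among those that did not pass, Reln had a log2FC of 0.66 (adjusted p = 0.147), Colec11 of 0.31 (adjusted p = 0.213) and Rgs5 of 0.43 (adjusted p = 0.281). Reln is also in the list of other matrix glycoproteins and proteoglycans described below, so the marker list and that list share a gene.

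Summed without Fn1 and Vtn, the other 40 matrix genes stood at 643, 740 and 894 CPM in F/F and at 1252, 1377 and 1426 CPM in ΔHep. The sum was 1.78-fold higher in ΔHep by the means, and that of the stellate cell and fibroblast markers 2.16-fold. Among these markers are Col1a1, Col1a2 and Col3a1, collagens and so themselves matrix genes, whose own sum was 3.47-fold higher. The larger rise of the marker sum, and the ratio given next, therefore depend on these collagens and do not show that the cell markers as a set rose more than the matrix genes. The matrix sum divided by the marker sum was 2.64, 2.65 and 2.22 in F/F and 2.53, 1.87 and 1.86 in ΔHep, so the ranges overlapped. Fn1 and Vtn together stood at 3819, 4092 and 4960 CPM in F/F and at 4115, 5183 and 4309 CPM in ΔHep, also overlapping. They made up 85.0% ± 0.505 of the counts of the 42 genes in F/F and 76.9% ± 1.95 in ΔHep (SD, n = 3 each).

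**Figure D4:**
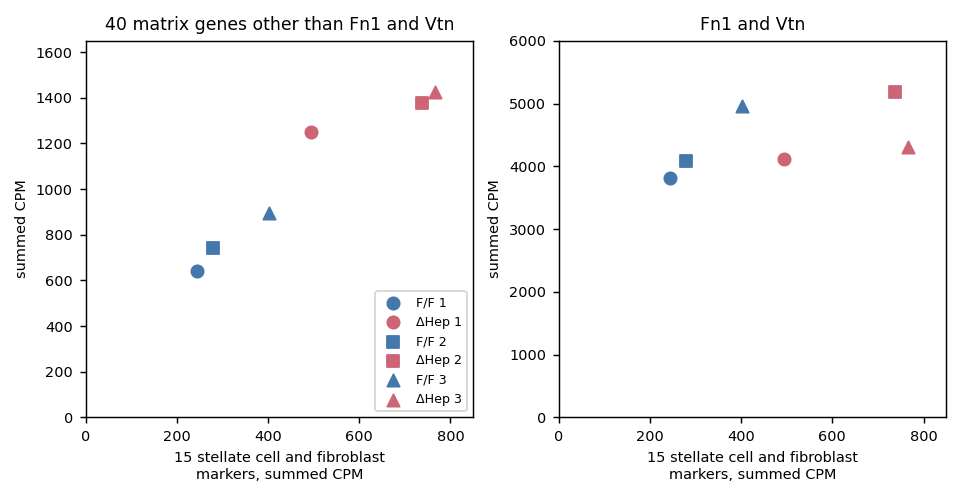
Summed CPM of the 40 matrix genes other than Fn1 and Vtn (left) and of Fn1 and Vtn (right) against the summed CPM of 15 stellate cell and fibroblast markers, 1 symbol per library, F/F in blue and ΔHep in red. On the left both sums are higher in every ΔHep library (1252 to 1426 CPM) than in any F/F library (643 to 894 CPM); on the right the genotypes overlap.

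Within the 40 genes other than Fn1 and Vtn, the share held by each gene does not depend on scaling between libraries. Shares were higher in every ΔHep library than in any F/F library for 10 genes (Lum, Vcan, Fbln1, Mfap2, Mfap4, Sparcl1, Ltbp2, Htra3, Matn2 and Nid1), lower for 2 (Ecm1 and Postn), and overlapped for 28. On this scale 2.91% of all tested genes were higher and 68.1% lower in every ΔHep library, since the sum they are divided by was higher in ΔHep. Ecm1 held 14.1% ± 1.15 of the counts of these genes in F/F and 7.55% ± 2.16 in ΔHep (SD, n = 3 each). Nid1 held 2.71% ± 0.373 and 3.74% ± 0.397. Divided by the summed stellate cell and fibroblast markers of the same library, 6 genes were higher in every ΔHep library (Vcan, Mfap2, Mfap4, Ltbp2, Matn2 and Nid1), 4 were lower (Fmod, Postn, Tnc and Ecm1) and 30 overlapped. On that scale 1.44% of all tested genes were higher and 67% lower. Vcan and Mfap2, which are in both lists, passed the filter on low counts through their ΔHep counts alone. In the F/F libraries Vcan had 5, 8 and 7 counts and Mfap2 had 1 count in each. The marker sum includes the collagen genes Col1a1, Col1a2 and Col3a1, which together were 3.47-fold higher in ΔHep by the means. Which genes are listed depends on these collagens, with Fmod and Lum among those whose place changes without them. These are descriptions with no test.

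Markers of most further cell types were higher in the same libraries. Over all tested genes, 1.51% rose in edgeR, 7.35% in DESeq2 and 0.522% in limma-voom. At an unadjusted p under 0.05 in edgeR, 14.1% were higher. Markers of mesothelium and portal fibroblasts summed to 7.96 to 11.7 CPM in F/F and 15.8 to 25.3 CPM in ΔHep, with 1 of 7 tested that rose (DESeq2 3, limma-voom 1); Gli1 was at 0 in 2 F/F libraries and Clec3b in 1. Smooth muscle markers summed to 10.7 to 17.1 CPM and 19.9 to 40.6 CPM, with 0 of 4 tested past the threshold in edgeR, 3 higher at an unadjusted p under 0.05, and 3 called by DESeq2 and 0 by limma-voom. Endothelial markers summed to 270 to 469 CPM and 488 to 577 CPM, with 0 of 10 past the threshold and 6 higher at an unadjusted p under 0.05 (DESeq2 2, limma-voom 0). Macrophage markers overlapped between the groups, at 232 to 579 CPM and 541 to 705 CPM, with 0 of 10 past the threshold and 6 at an unadjusted p under 0.05 (DESeq2 4, limma-voom 0). Cholangiocyte markers summed to 22.9 to 28.6 CPM and 30.0 to 53.0 CPM, and 4 of 7 tested rose (DESeq2 5, limma-voom 0). The part of these cells in the matrix gene results was not tested.

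Other genes of the matrix were read from 3 further lists. Of 58 tested glycoproteins and proteoglycans outside the 42, 11 rose and 0 fell, with a median log2FC of 0.99. Over all tested genes, 1.51% rose and 0.165% fell. Igfbp7, a growth factor binding protein of the vascular matrix, stood at 40.2, 48.3 and 51.4 CPM in F/F and at 85.3, 109 and 117 CPM in ΔHep (log2FC 1.15, SE 0.15, adjusted p = 0.0329). Adamtsl2, a microfibril-binding glycoprotein, rose from 10.8 ± 2.04 to 33.9 ± 10.9 CPM (SD, n = 3 each; log2FC 1.65, SE 0.24). Mfge8, encoding lactadherin, which bridges integrins and phosphatidylserine, rose from 11.4 ± 0.639 to 22.4 ± 1.42 CPM. Dpt, encoding dermatopontin, which binds decorin, rose from 4.85 ± 1.82 to 18.2 ± 6.04 CPM. The groups of these 4 genes, named because they passed, did not overlap. In 34 of the 58 every ΔHep library lay above every F/F library, as in 15.3% of all tested genes. Tsku and Smoc1, the 2 most abundant that did not pass, had log2FCs of -0.07 and 0.11 (adjusted p = 0.891 and 0.623).

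Enzymes that process or decorate matrix proteins were counted in the same way. Of 20 tested genes for the processing of collagen and elastin 1 rose and 0 fell, with a median log2FC of 0.48. Before adjustment, at p under 0.05, 8 were higher and 1 was lower, and the calls numbered 5 in DESeq2 and 1 in limma-voom. The 1 that rose was Serpinh1, the collagen chaperone HSP47, at 17.0, 18.7 and 16.2 CPM in F/F and 31.6, 31.8 and 42.4 CPM in ΔHep (log2FC 1.03, SE 0.15, adjusted p = 0.0329). P4hb, a subunit of prolyl 4-hydroxylase and a general disulfide isomerase, stood at 1543 and 1297 CPM (log2FC -0.25, adjusted p = 0.261), and the protease Furin at 338 and 345 CPM (adjusted p = 0.900). Of 30 tested enzymes of glycosaminoglycan synthesis, which build the sugar chains of proteoglycans, 0 passed in edgeR. Before adjustment, at p under 0.05, 6 were higher and 2 lower, and DESeq2 called 1 and limma-voom 0. Their median log2FC was 0.08. Over all tested genes, 14.1% were higher and 6.97% lower at an unadjusted p under 0.05. The shares called higher were 1.51% in edgeR, 7.35% in DESeq2 and 0.522% in limma-voom. The counts for glycosaminoglycan synthesis lay close to these shares. Whether the 3 lists differ from the 42 genes was not tested.

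The number of calls rested on single libraries and on the tool. DESeq2 called 30 of the 40 genes higher, where 7.35% of all tested genes were, and limma-voom called 7 (Bgn, Emilin1, Htra3, Ltbp1, Lum, Nid1 and Tgfbi), where 0.522% were. Without F/F replicate 1 or 2, 0 of the 41 genes tested there passed, with 0.00666% and 0.00% of all tested genes higher, and 33 and 32 were higher at an unadjusted p under 0.05. Without F/F replicate 3, 23 passed (6.79% of tested genes). Without ΔHep replicate 1, 14 passed (1.23%). Without ΔHep replicate 2, 0 passed (0.0202%), with 32 higher at an unadjusted p under 0.05. Without ΔHep replicate 3, 2 passed, Htra3 and Sparcl1 (0.0269%). With library totals only 24 passed (4.23%), with size factors of the RLE type 12 (1.55%), with no filter on low counts 14 (1.22%) and with the replicate number as a block 16 (1.45%). The 12 genes that rose had positive fold changes in each of these 12 settings. For all 12 genes every ΔHep library lay above every F/F library, so leaving out 1 library could hardly turn the sign. In all 6 settings that keep every library, 6 of the 12 (Lum, Bgn, Emilin1, Nid1, Htra3 and Tgfbi) passed. The median log2FC of the tested matrix genes stayed between 0.89 and 1.21.

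**Figure D5:**
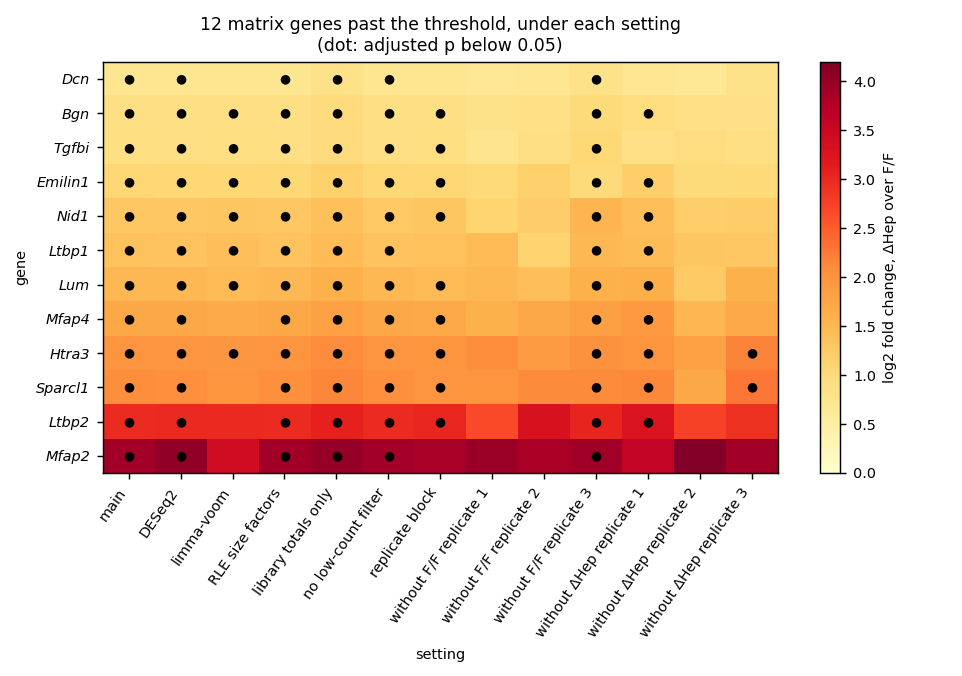
Log2 fold change (ΔHep over F/F, colour) of the 12 matrix genes that rose, under edgeR as reported (main) and 12 other settings; a dot marks an adjusted p below 0.05. The colours of a row change little, with Lum between 1.25 and 1.61, while the dots are missing in the columns without F/F replicate 1, F/F replicate 2 and ΔHep replicate 2.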

How the data were processed

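The authors deposited raw read counts per gene symbol for 6 libraries, the only unit used. Reads were aligned to mm10 with HISAT2 2.0.4, per the submitters' processing notes. The counting program, annotation and strand setting were not given in the sources used here, so genes with overlapping exons (17 of the 42) are less certain. Counts were tested with edgeR 4.0.16 (R 4.3.3): filterByExpr (minimum count 10, minimum total 15; 14552 genes kept), TMM scaling, the quasi-likelihood F test, two-sided, and Benjamini-Hochberg adjustment over all tested genes at 0.05. The SE of a log2 fold change was taken as its absolute value over sqrt(F). The common biological coefficient of variation was 21.5%, and no 2 libraries of a group agreed within sampling noise. Ratios of pooled low counts have exact 95% intervals, which cover counting error only. The main edgeR fit was tested on simulated data, and the alternatives were not. Exon lengths and positions came from GENCODE M21 (GRCm38, the same assembly as mm10), promoters and gene order from RefSeq GRCm38.p6. Alternatives were DESeq2 1.42.0, limma-voom (limma 3.58.1), other scaling, no filter, a replicate block and leaving out each library.

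The genes, role groups, other lists and markers were chosen with earlier results of these data known. Values per library are given for each gene past the threshold, for the 2 most abundant that did not pass in each role group, and for Fn1 and Vtn; from other lists up to 4 genes that passed and 2 that did not were named, by highest mean CPM. The values of Aspn, Eln, Fbn1, Fbln1, Tnxb, Postn, Mfap5 and Ogn per library, and the stellate cell genes that did not pass, were added after values were seen.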

Additional observations from a re-analysis of the deposited data

How the results depend on the processing

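The count of genes past the threshold was 244 over all genes and moved to 1309 under DESeq2, 88 under limma-voom and 644 with unscaled library totals, where the median of all genes shifted to 0.08 and 615 were higher and 29 lower. Leaving out 1 library gave 1 to 1246 genes. For the matrix genes the count of 12 moved to 30, 7 and 24 in the same 3 settings and to between 0 and 23 without 1 library. The median log2 fold change of the matrix genes lay between 0.89 and 1.21 without 1 library. None of the 12 settings put a matrix gene past the threshold in the lower direction (0 in each; 0 also at an unadjusted p below 0.05 in edgeR, DESeq2 and limma-voom). The sign turned for Vtn, to 0.03 with library totals only and to between -0.22 and 0.01 without 1 library (0.01 without ΔHep replicate 1), and for Ecm1, to 0.01 with library totals only and to between -0.27 and 0.01 without 1 library (0.01 without ΔHep replicate 2); the cause was not tested. With the replicate number as a block, 236 genes and 16 matrix genes passed, 9 of them among the 12. Deviations of same-numbered libraries correlated at 0.146, -0.0791 and -0.0241 over all tested genes, and not every library correlated best with its own number. So few correlations cannot settle whether same-numbered libraries were paired, and the labels do not say. Depth limits Mfap2, Mfap5, Aspn and Vcan, with at most 100 pooled counts per group.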
